A study of Mus musculus with 6 samples.

Results

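Lysosomal membrane proteins and transporters were taken as a list of 38 genes, matched by symbol to the rows of the deposited count table. All 38 were among the 22601 genes listed, and all 38 were among the 13483 genes with enough counts to be tested. They were sorted by what they do into 6 groups: 10 membrane glycoproteins and related spanning proteins, 6 ion channels, 11 amino acid and peptide carriers, 3 carriers of sialic acid, nucleosides or nucleic acid, 5 carriers of metals, heme or cobalamin, and 3 carriers of sterols or lipids. *Slc37a2*, the gene deleted in the study and itself a solute carrier of osteoclast secretory lysosomes, was kept apart and used as a reference point.

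RNAseq read counts were compared between 3 WT and 3 Slc37a2KO libraries, to ask which transcripts differ when *Slc37a2* is lost. The labels describe osteoclasts grown from bone marrow macrophages (BMMs) for 5 days with 10 ng/ml RANKL, the cytokine that drives osteoclast formation, and 2 ng/ml M-CSF, which keeps their precursors alive. The study's account of its results also reports the RNAseq as one of osteoclasts, whereas its methods describe RNA from whole femurs and tibias. Slc37a2KO mice are homozygous for the KOMP gene-trap allele of *Slc37a2*, present in every cell, and WT mice are their littermates, all on a C57BL/6N background. By the labels both groups had the same culture, and the column headings give an age of 11 weeks and the letter F for every library. Libraries are named by the letter and number that follow the genotype in the heading: K090, L080 and L082 for WT, and K089, L078 and L081 for Slc37a2KO. The labels number the samples as biological replicates without naming the animals or cultures behind them, so p-values measure the spread between these libraries.

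The lysosomal membrane separates an acidic, hydrolase-filled lumen from the cytosol. Its glycoproteins line the lumenal face, its channels pass protons, calcium, sodium, potassium and chloride, and its carriers hand the products of digestion (amino acids, peptides, sugars, nucleosides, metals, sterols) back to the cytosol. In osteoclasts, lysosomes also act as secretory organelles: they fuse with the bone-facing plasma membrane and build the ruffled border, through which acid and enzymes reach the bone.

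*Slc37a2* was measured first, since it checks the genotype labels. Its counts were 75789 in K090, 60889 in L080 and 76013 in L082 (WT), against 1233 in K089, 1446 in L078 and 1043 in L081 (Slc37a2KO). Its log2 fold change was −5.82 (standard error 0.20, Benjamini-Hochberg adjusted p = 7.07e-04 in the quasi-likelihood test of edgeR). Library totals ran from 27552183 to 42522292 counts. Levels are given as scaled CPM, each library's counts scaled by its total and TMM factor, and comparisons between genes as scaled CPM per kilobase of exon.

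The cell content of the libraries was read from marker lists. All 10 osteoclast markers, among them *Acp5*, *Ctsk* and *Calcr*, were counted in every library. Sums over marker lists are given as CPM of the library total, without the TMM factor. The osteoclast sum ran from 39869 to 57359 CPM in WT and from 44352 to 70383 in Slc37a2KO libraries. The 10 macrophage markers, among them *Adgre1* and *Csf1r*, summed to 3322–7080 in WT and 3091–6546 in Slc37a2KO libraries. The 12 interferon response genes summed to 26.1–203 in WT and 17.8–125 in Slc37a2KO libraries. The 10 proliferation genes summed to 807–1146 in WT and 497–1130 in Slc37a2KO libraries, and the 8 stromal markers to 906–1673 and 652–2036, with 1 stromal marker at 0 in K089. The 6 neutrophil markers summed to at most 1.40, and up to 4 of them were at 0 in a library. None of the tested genes in these lists had an adjusted p below 0.05. In such bulk libraries, fewer cells of a type and less RNA per cell cannot be told apart.

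The members differed widely in level. Placed among them by scaled CPM per kilobase in WT libraries, *Slc37a2* came in position 4 with 324 ± 43.9 (SD, n = 3), and ranked 91 of the 12833 tested genes with a known exon length. Above it were *Cd68*, a heavily glycosylated protein of macrophage and osteoclast lysosomes (1298 ± 167, rank 14), *Gpnmb*, a glycoprotein of lysosomes and melanosomes (534 ± 9.18, rank 41), and *Laptm5*, a spanning protein of lysosomes in blood cells (344 ± 21.3, rank 80). Without division by exon length, the WT ranks were 12 for *Gpnmb*, 23 for *Slc37a2*, 38 for *Cd68* and 55 for *Laptm5*. The order thus depends on exon length. Per kilobase, the mean ± SD of *Slc37a2* overlapped those of *Laptm5* and of *Lamp1*, its neighbours in the order. *Lamp1* (225 ± 67.9), the most studied lysosomal membrane protein, *Cd63* (189 ± 29.9), a tetraspanin, and *Mfsd12* (184 ± 11.4), a carrier needed for cysteine import into lysosomes, followed, and the mean ± SD of each overlapped that of its neighbour. *Mfsd12* was thus the highest of the solute carriers other than *Slc37a2*, ahead of the heme carrier *Slc48a1* (70.7 ± 2.97) and the dipeptide exporter *Mfsd1* (61.4 ± 8.21).

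In the middle of the order, 12 members ran from *Ctns* (17.5 ± 0.945), the cystine exporter, to *Cln3* (9.55 ± 0.360), the protein lost in juvenile Batten disease. Among them only the neighbours *Slc29a3* (13.0 ± 0.722), a nucleoside exporter, and *Slc36a4* (11 ± 0.296), an amino acid carrier, differed beyond their mean ± SD. *Slc17a5*, the sialic acid exporter sialin, stood there at 14.9 ± 0.399, rank 3135. *Tpcn1* led the channels at 13.4 ± 0.897, and *Mcoln1*, the calcium release channel TRPML1, had 7.81 ± 0.783. At the bottom were *Mfsd8*, a chloride channel (1.13 ± 0.104), *Abcd4*, which acts in cobalamin export (0.545 ± 0.196), and *Abcb9*, a peptide pump (0.452 ± 0.0446), the last pair again within their mean ± SD of each other. *Cd68*, the highest member per kilobase, and *Abcb9*, the lowest, were therefore at ranks 14 and 11152 of 12833.

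**Figure D1:**
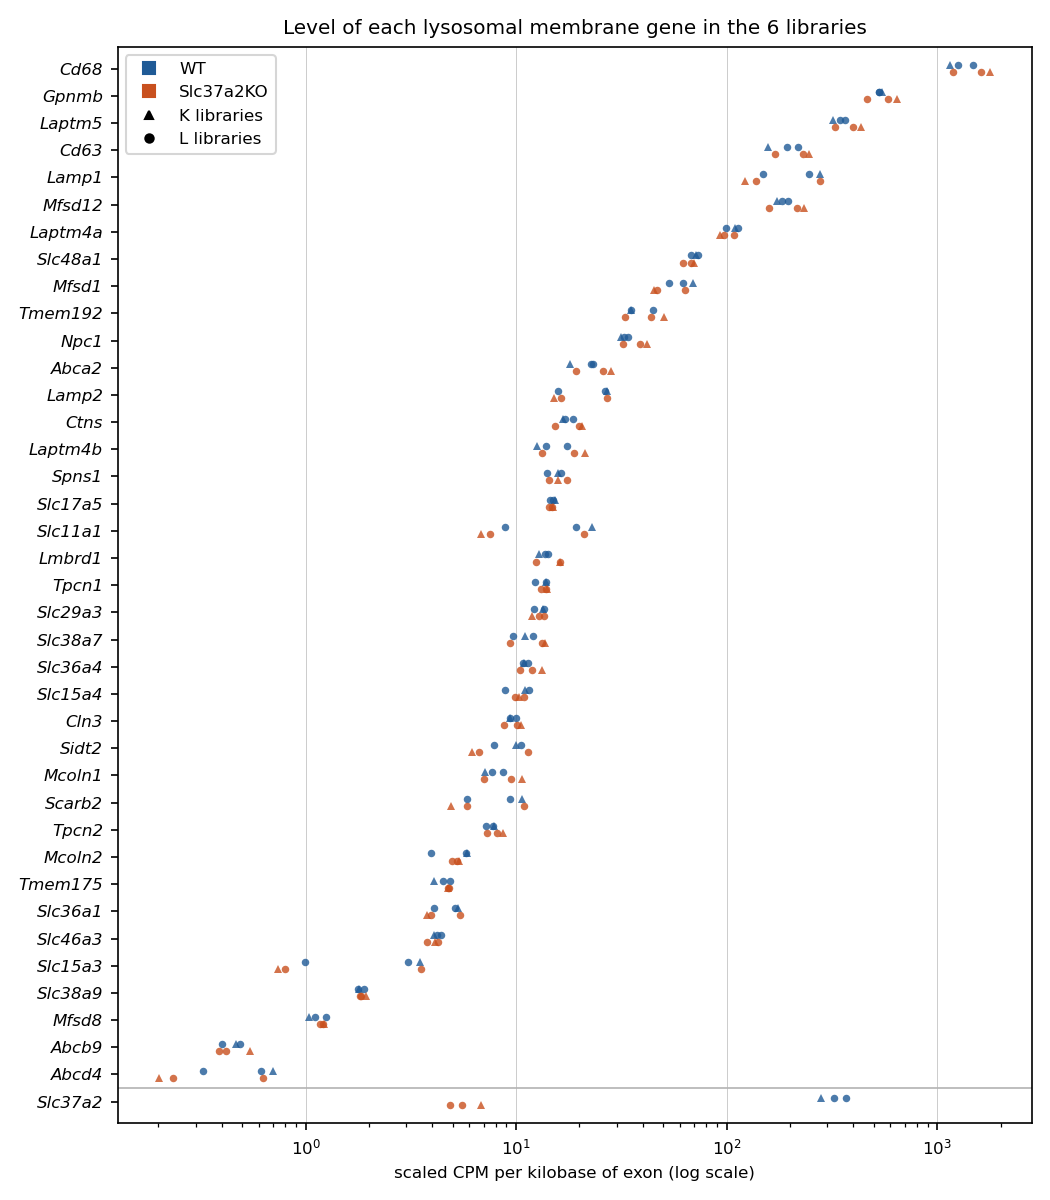
Scaled CPM per kilobase of exon (log axis) of the 38 members, ordered by their mean over the 6 libraries, with *Slc37a2* at the bottom; each point is a library, blue for WT and orange for Slc37a2KO, triangles for K and circles for L libraries. Blue and orange points overlap for every member, whereas *Slc37a2* falls from 280–367 in WT to 4.83–6.81 in Slc37a2KO libraries.

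The 15 members named Slc, Mfsd or Spns and the cystine exporter *Ctns*, 16 genes in all, were also summed as a pool of lysosomal solute carriers other than *Slc37a2*. Chosen by name, the pool also holds *Mfsd8* (1.13 in WT), which is sorted here with the ion channels. The sum was 446, 450 and 425 scaled CPM per kilobase in WT libraries K090, L080 and L082, and 468, 415 and 445 in Slc37a2KO libraries K089, L078 and L081. The groups overlapped, with means of 440 ± 13.7 and 442 ± 26.4 (SD, n = 3). *Mfsd12* (184 in WT), *Slc48a1* (70.7) and *Mfsd1* (61.4) weighed most in this sum, so it says little about the lower carriers. The genes were chosen with earlier results known, so the sum is a description only. *Slc37a2* alone had 324 in WT, against 440 for these 16 genes together. This comparison depends on the exon length, which counts the exons of all transcripts of a gene. Without division by length, *Slc37a2* had 2149 scaled CPM in WT, more than the 16 together, of which *Mfsd12* (729) was the highest. All 38 members held 1.09–1.14% of all counts, before scaling, in WT and 1.09–1.19% in Slc37a2KO libraries.

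No member was called different by genotype. An adjusted p below 0.05 was reached by 0 of the 38, where 1 of all genes tested (0.00742%), *Slc37a2*, reached it. An unadjusted p below 0.05 was reached by 0 of 38 in the quasi-likelihood and likelihood ratio tests of edgeR and in the Wald test of DESeq2, against 0.712% of all genes in the first of these. The libraries of the 2 genotypes failed to overlap for 0 of 38, against 4.31% of all genes. Of the members, 22 had a positive and 16 a negative log2 fold change (43.8% of all genes were positive), with a median of 0.03 beside −0.02 over all genes. The log2 fold changes ran from −0.61 (*Abcd4*) to 0.28 (*Laptm4b*). The smallest p was 0.117, for *Npc1*, the cholesterol exporter, and the adjusted p ran from 0.969 to 0.999 over the 38.

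The confidence intervals give the room these libraries leave for a change. For 33 of 38 members the 95% interval of the log2 fold change lay within −1 to 1, as for 78.6% of all genes, and for 25 it lay within 1.5-fold, as for 61.1% of all genes. The exceptions to the wider limit were *Lamp1* (−1.23 to 0.57), *Scarb2* (−1.11 to 0.60), *Slc15a3* (−2.34 to 1.23), *Slc11a1* (−1.82 to 0.76) and *Abcd4* (−1.84 to 0.62). These same 5 spanned over 1 log2 unit across the 6 libraries (21.3% of all genes did), from 1.16 for *Scarb2* to 2.24 for *Slc15a3*. The narrowest interval belonged to *Slc17a5* (−0.16 to 0.10).

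**Figure D2:**
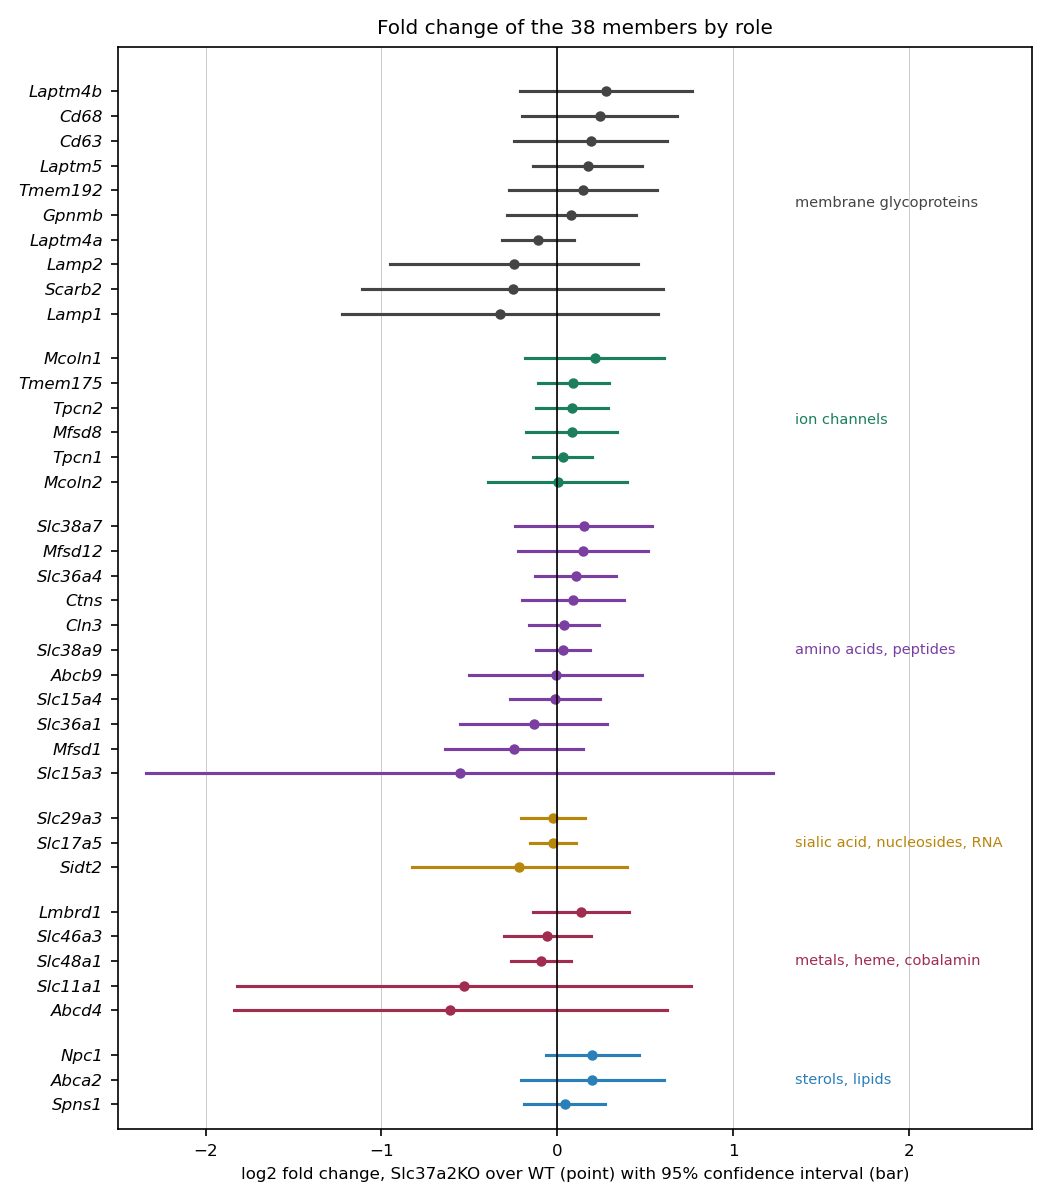
Log2 fold change of each member (point) with its 95% confidence interval (bar), Slc37a2KO over WT, grouped and coloured by role. Every interval crosses 0, and the widest are those of *Slc15a3*, *Slc11a1*, *Abcd4*, *Lamp1* and *Scarb2*.

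Among the 10 membrane glycoproteins and related proteins, 6 fold changes were positive and 4 negative, with a median of 0.11 and 0 of 10 called. *Lamp1* and *Lamp2*, which coat the lumenal face of the membrane and protect it, spanned 1.19 and 0.84 log2 units across the 6 libraries. *Lamp1* had 746, 662 and 398 scaled CPM in WT libraries K090, L080 and L082, and 328, 741 and 371 in Slc37a2KO libraries K089, L078 and L081. L078 matched the high WT libraries and L082 the low Slc37a2KO libraries, so the groups overlapped (602 ± 182 and 480 ± 227, SD, n = 3). The log2 fold change of *Lamp1* was −0.33 (standard error 0.37, 95% interval −1.23 to 0.57), and it ran from −0.79 without L078 to −0.10 without K089.

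*Lamp2*, which also serves as the receptor of chaperone-mediated autophagy, had 259, 253 and 152 scaled CPM in WT and 145, 258 and 157 in Slc37a2KO libraries, in the same library order. The high and low libraries were the same as for *Lamp1*, and the log2 fold change was −0.25 (standard error 0.29, 95% interval −0.95 to 0.46), or −0.56 without L078 and −0.08 without K089. *Scarb2* (LIMP-2), a receptor that carries a hydrolase to lysosomes, was added here after its values were seen. It had 67.4, 58.8 and 36.6 in WT and 30.7, 68.5 and 36.9 in Slc37a2KO libraries, again with L078 among the high libraries, and its log2 fold change of −0.25 became −0.68 without L078 and −0.02 without K089.

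The tetraspanin *Cd63* and the glycoprotein *Cd68* ran the other way between libraries. *Cd63* had 581, 709 and 800 scaled CPM in WT and 907, 623 and 853 in Slc37a2KO libraries. Its groups overlapped, with a log2 fold change of 0.19 (standard error 0.18, 95% interval −0.25 to 0.63) that ran from 0.07 without K090 to 0.34 without L078. *Cd68* had 1454, 1578 and 1864 in WT and 2252, 1491 and 2039 in Slc37a2KO libraries. Here K089 was the highest library and L078 lay between the lower WT values, with a log2 fold change of 0.24 (standard error 0.18, 95% interval −0.20 to 0.68) that ran from 0.14 without K089 to 0.39 without L078. *Laptm4b*, a spanning protein of late endosomes and lysosomes, had the smallest p of the group and the highest fold change of all members. It had 24.3, 26.9 and 33.8 in WT and 41.1, 25.7 and 36.5 in Slc37a2KO libraries, which overlapped through L078 (log2 fold change 0.28, standard error 0.20, 95% interval −0.21 to 0.77, and 0.45 without L078). The log2 fold changes of the other members of the group were 0.17 for *Laptm5*, 0.15 for *Tmem192*, 0.08 for *Gpnmb* and −0.11 for *Laptm4a*.

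**Figure D3:**
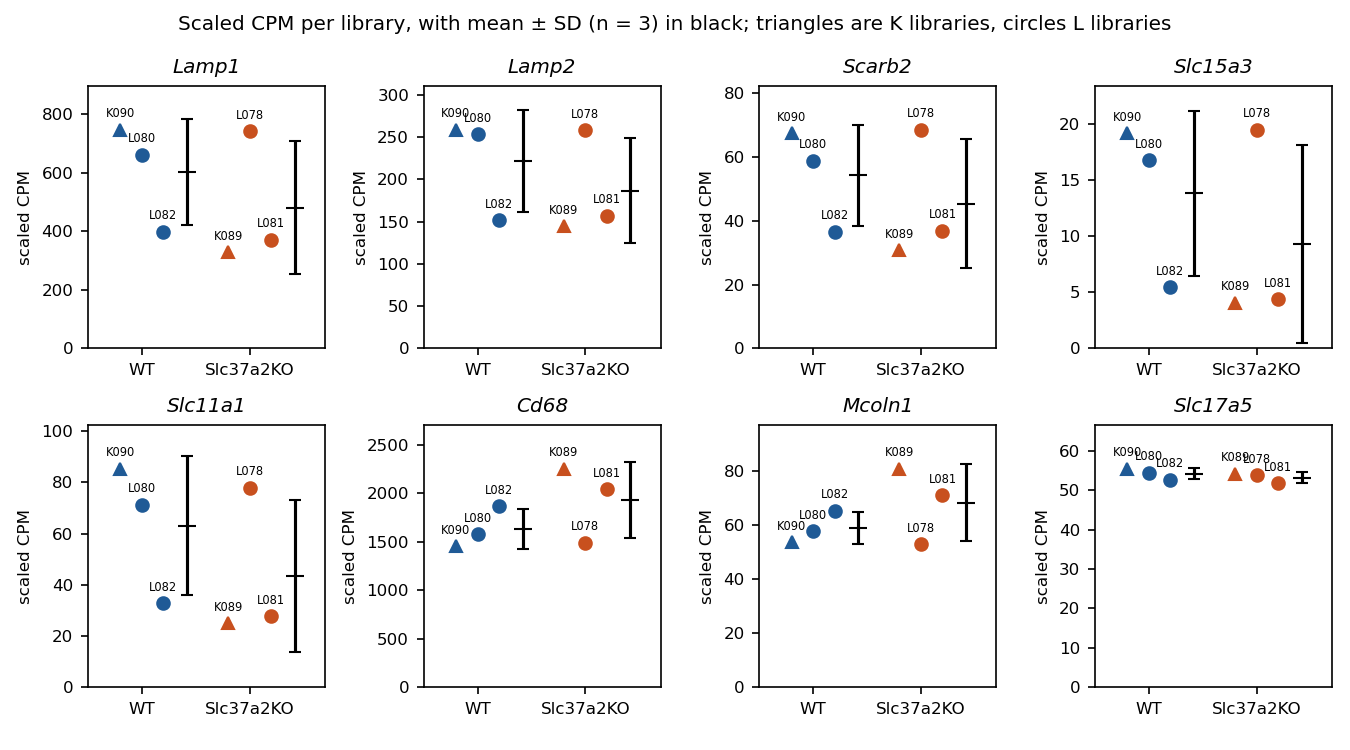
Scaled CPM of *Lamp1*, *Lamp2*, *Scarb2*, *Slc15a3*, *Slc11a1*, *Cd68*, *Mcoln1* and *Slc17a5* in each library, WT in blue and Slc37a2KO in orange, with the mean ± SD of the 3 libraries in black; axes start at 0. In the first 5 panels K090, L080 and L078 sit high and L082, K089 and L081 low, *Cd68* and *Mcoln1* show the reverse, and *Slc17a5* stays between 51.7 and 55.4.

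All 6 ion channels had positive fold changes, with a median of 0.08, 0 of 6 called and 0 of 6 past an unadjusted p of 0.05. *Mcoln1*, which releases lysosomal calcium, had 53.7, 57.9 and 65.4 scaled CPM in WT libraries K090, L080 and L082, and 81, 52.9 and 71.2 in Slc37a2KO libraries K089, L078 and L081. L078 was the lowest of the 6 libraries and K089 the highest. The log2 fold change of *Mcoln1* was 0.21 (standard error 0.16, 95% interval −0.18 to 0.61), or 0.37 without L078 and 0.10 without K089. *Tpcn1*, an endolysosomal cation channel and the highest of the channels per kilobase, had 117, 118 and 104 in WT and 119, 112 and 117 in Slc37a2KO libraries, a log2 fold change of 0.03 (95% interval −0.14 to 0.20). The other log2 fold changes were 0.09 for *Tmem175*, the lysosomal potassium and proton channel, 0.08 each for *Tpcn2* and *Mfsd8*, and 0.0016 for *Mcoln2*, the relative of *Mcoln1* that is inducible in macrophages. *Clcn7*, the chloride-proton exchanger of the ruffled border, which is no member, had a log2 fold change of 0.33 (95% interval −0.27 to 0.94).

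The 11 amino acid and peptide carriers were 6 higher and 5 lower, with a median of 0.03 and 0 of 11 called. *Mfsd12*, the highest of them per kilobase, had 686, 725 and 776 scaled CPM in WT libraries K090, L080 and L082, and 928, 631 and 859 in Slc37a2KO libraries K089, L078 and L081. Its groups overlapped through L078, with a log2 fold change of 0.15 (standard error 0.15, 95% interval −0.23 to 0.52), or 0.29 without L078 and 0.06 without K089. *Mfsd1*, which exports dipeptides, had the smallest p of the group. It had 211, 189 and 161 in WT and 137, 194 and 142 in Slc37a2KO libraries, with L078 above the middle WT library and a log2 fold change of −0.25 (standard error 0.16, 95% interval −0.64 to 0.15), or −0.42 without L078 and −0.14 without K089.

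*Slc15a3*, a carrier of histidine and small peptides that immune cells use for bacterial fragments, varied most of all members. It had 19.2, 16.8 and 5.46 scaled CPM in WT and 4.07, 19.5 and 4.38 in Slc37a2KO libraries, in the same order. The value in L078 exceeded every WT value and the value in L082 was near those of K089 and L081. Its log2 fold change was −0.56 (standard error 0.74, 95% interval −2.34 to 1.23), or −1.71 without L078 and −0.19 without K089. Its relative *Slc15a4*, which supports signalling by endosomal Toll-like receptors, spanned 0.37 log2 units and had a log2 fold change of −0.014. The remaining carriers ran from −0.13 for *Slc36a1*, a proton-coupled amino acid exporter, to 0.15 for *Slc38a7*, a glutamine exporter, with *Slc38a9*, the arginine sensor of mTORC1, at 0.03 (95% interval −0.12 to 0.18). In between lay *Abcb9* (−0.010), *Cln3* (0.04), *Ctns* (0.09) and *Slc36a4* (0.10).

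The 3 carriers of sialic acid, nucleosides and nucleic acid all had negative fold changes, with a median of −0.03 and 0 of 3 called. *Slc17a5*, the sialic acid exporter, was the steadiest of the 38: it had 55.4, 54.4 and 52.5 scaled CPM in WT libraries K090, L080 and L082, and 54.1, 53.7 and 51.7 in Slc37a2KO libraries K089, L078 and L081. The groups overlapped within a span of 0.10 log2 units, and the log2 fold change was −0.03 (standard error 0.05, 95% interval −0.16 to 0.10). *Slc29a3*, the lysosomal nucleoside exporter, had a log2 fold change of −0.02. *Sidt2*, which takes RNA and DNA into lysosomes, had 51.3, 54.0 and 40.3 in WT and 31.8, 58.8 and 34.5 in Slc37a2KO libraries. L078 was its highest library, and its log2 fold change of −0.22 (standard error 0.25, 95% interval −0.83 to 0.40) became −0.55 without L078 and −0.04 without K089.

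Of the 5 carriers of metals, heme and cobalamin, 1 was higher and 4 lower, with a median of −0.09 and 0 of 5 called. *Slc48a1*, which moves heme out of lysosomes, had 196, 201 and 185 scaled CPM in WT libraries K090, L080 and L082, and 192, 186 and 170 in Slc37a2KO libraries K089, L078 and L081. The groups overlapped, and the log2 fold change was −0.09 (standard error 0.07, 95% interval −0.26 to 0.08), or −0.02 without L081. *Abcd4*, an adaptor and pump in the export of cobalamin, had the largest log2 fold change of all members by size, at a low level. It had 5.59, 4.91 and 2.60 in WT and 1.61, 5.02 and 1.87 in Slc37a2KO libraries, with L078 again among the high libraries (log2 fold change −0.61, standard error 0.51, 95% interval −1.84 to 0.62, or −1.32 without L078 and −0.32 without K089). Its partner *Lmbrd1* had a log2 fold change of 0.14 (95% interval −0.14 to 0.41). *Slc11a1* (Nramp1), which removes iron and manganese from the phagosomes of macrophages, was added after its values were seen. It had 85.3, 71.3 and 32.9 in WT and 25.1, 77.8 and 27.9 in Slc37a2KO libraries, a log2 fold change of −0.53 that became −1.25 without L078 and −0.24 without K089. *Slc46a3*, a carrier of products of lysosomal digestion, spanned 9.32 to 10.8, with a log2 fold change of −0.06.

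The 3 carriers of sterols and lipids all had positive fold changes, with a median of 0.20 and 0 of 3 called. *Npc1*, which passes cholesterol out of lysosomes, had 358, 369 and 386 scaled CPM in WT libraries K090, L080 and L082, and 474, 363 and 441 in Slc37a2KO libraries K089, L078 and L081. L078 was inside the WT range and the other Slc37a2KO libraries above it. The log2 fold change of *Npc1* was 0.20 (standard error 0.11, 95% interval −0.07 to 0.46), or 0.30 without L078. *Abca2*, a lipid pump, had a log2 fold change of 0.20 and *Spns1*, the exporter of lysophospholipids, 0.04.

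For many members the highest libraries came from both genotypes. K090, L080 and L078 were the 3 highest libraries for 11 members: *Lamp1*, *Lamp2*, *Scarb2*, *Laptm4a*, *Slc15a3*, *Slc36a1*, *Mfsd1*, *Slc29a3*, *Sidt2*, *Slc11a1* and *Abcd4*. K089, L081 and L082 were the 3 highest for 10 members: *Cd63*, *Cd68*, *Tmem192*, *Laptm4b*, *Mcoln1*, *Slc36a4*, *Mfsd12*, *Lmbrd1*, *Npc1* and *Abca2*. These trios were the highest for 22.6% and 20.8% of all genes tested, against 28.9% and 26.3% of the members. K089 was the highest library for 19 members (22.6% of all genes) and the lowest for 11 (22.8% of all genes), and L078 was the lowest for another 11 (21.0% of all genes).

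Marker levels moved with these libraries. The median deviation of the macrophage list from its mean over the 6 libraries was 1.02, 0.68 and −0.84 log2 units in WT libraries K090, L080 and L082, and −1.15, 0.81 and −0.63 in Slc37a2KO libraries K089, L078 and L081. For the interferon response list it was 1.73, 0.67 and −1.08, and −1.74, 1.04 and −0.63. The osteoclast list ran the other way, with −0.40, −0.11 and 0.06 in WT and 0.43, −0.30 and 0.25 in Slc37a2KO libraries. The proliferation list had 0.42, −0.02 and 0.03 in WT and −0.58, 0.39 and −0.24 in Slc37a2KO libraries. By their medians, the macrophage and interferon lists were thus high in the 3 libraries in which *Lamp1*, *Slc15a3* and *Slc11a1* were high. *Csf1r* of the macrophage list was not, with 1757, 1885 and 1852 scaled CPM in WT and 2096, 1724 and 1971 in Slc37a2KO libraries. The part of cell content in the values of the members was not tested.

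**Figure D4:**
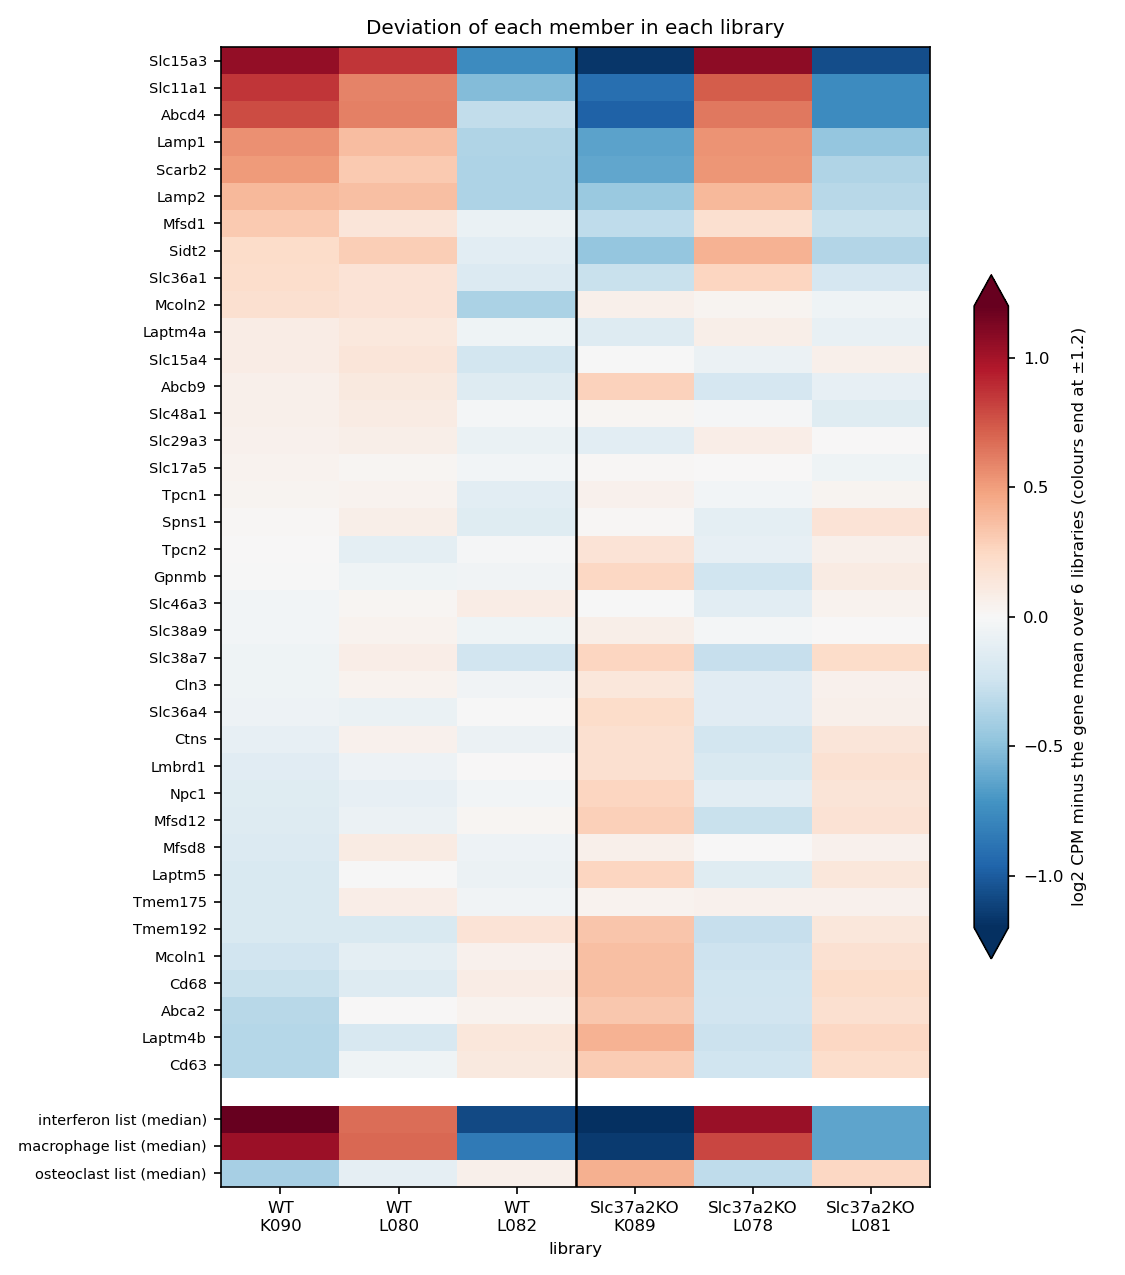
Log2 CPM of each member in each library minus its mean over the 6 libraries (red above, blue below, colours ending at ±1.2), members sorted by their value in K090, with the medians of 3 marker lists at the foot. *Slc15a3* to *Lamp2* at the top are red in K090, L080 and L078 like the macrophage and interferon lists, and *Cd63* to *Mcoln1* at the base have the opposite signs in K090, L078, K089 and L081, like the osteoclast list.

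The letter that opens each library name, K or L, is the one grouping that the headings give besides genotype, and what it stands for is not stated. Within the L libraries, 2 of each genotype, the difference in mean log2 CPM between Slc37a2KO and WT had a median size of 0.0422 over the 38 members and reached at most 0.215, for *Abcd4*. Between the K libraries, 1 of each genotype, it had a median size of 0.321. Over all genes these medians were 0.0741 and 0.243. The difference had opposite signs in K and L libraries for 19 of 38 members (53.5% of all genes). For *Slc15a3* it was −0.05 in L and −2.22 in K libraries, for *Slc11a1* −0.06 and −1.76, for *Lamp1* 0.03 and −1.19, and for *Cd68* 0.02 and 0.63. K089 against K090 is a single pair, so this difference has no replicate check. A difference of 1 library against 1 also varies more than a difference between means of 2. K090 and K089 were in opposite trios of high libraries, whereas the L libraries of each genotype held 1 of each trio.

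**Figure D5:**
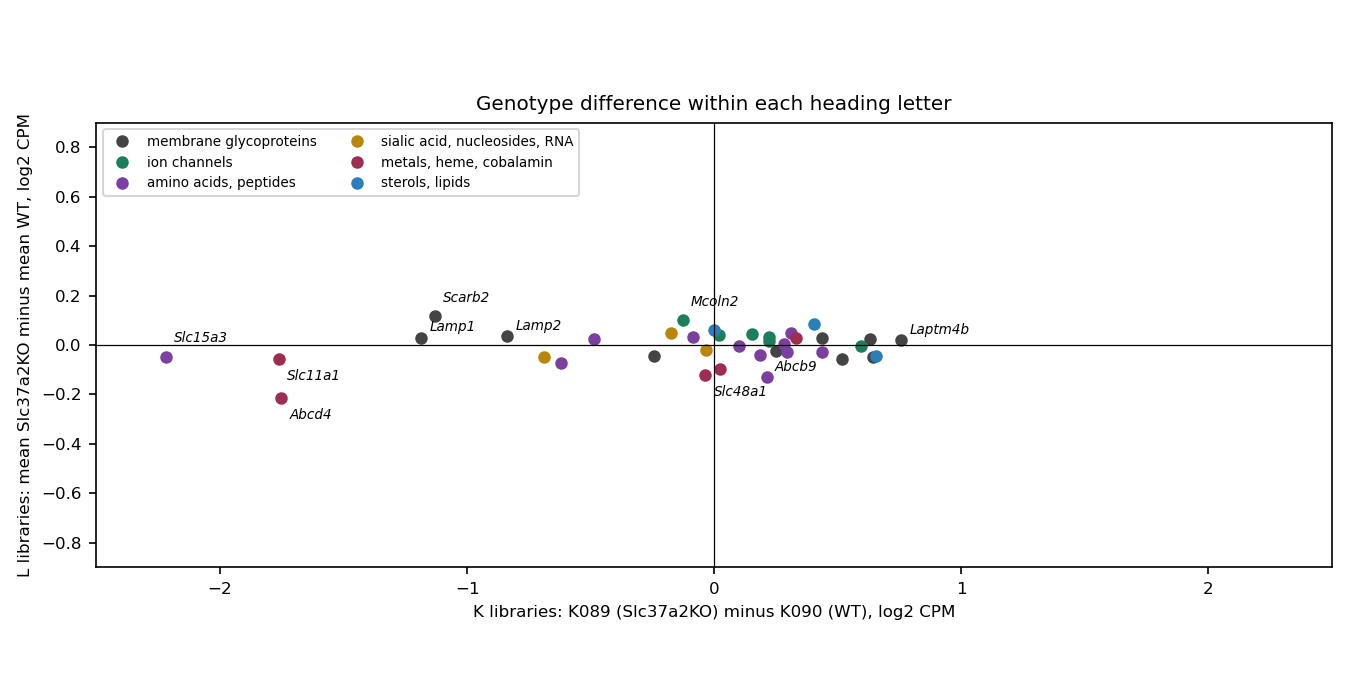
Difference in log2 CPM between Slc37a2KO and WT for each member, between K libraries (x axis, 1 against 1) and between L libraries (y axis, means of 2 against 2), coloured by role. The y axis values stay within 0.215 of 0 whereas the x axis values reach −2.22.

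The counts over the members moved most with library L078. Without it, an adjusted p below 0.05 was still reached by 0 of 38 members, where the smallest Benjamini-Hochberg adjusted p was 0.227. An unadjusted p below 0.05 was then reached by 18 of 38 (20.1% of all genes), and the groups did not overlap for 23 of 38 (41.6% of all genes), where with all libraries both counts were 0. Leaving out WT library L080 left 3 of 38 members without overlap (9.60% of all genes), and leaving out WT library L082 also 3 (16.4% of all genes). The span across the Slc37a2KO libraries exceeded that across the WT libraries for 31 of 38 members (60.4% of all genes), with medians of 0.446 and 0.264 log2 units.

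Lysosomal genes are classically controlled by TFEB and related MiT/TFE factors, which bind E-box sequences near gene starts. The 4 factors themselves (*Mitf*, *Tfeb*, *Tfe3*, *Tfec*) had log2 fold changes of −0.08, −0.05, −0.07 and −0.13, with 0 of 4 called. The Slc37a2KO libraries lay below all WT libraries for *Mitf* and *Tfec* (2.81% of all genes lay wholly lower), with 95% intervals of −0.21 to 0.04 and −0.30 to 0.05. A promoter window of 250 bases before to 50 after the gene start was held for 32 members (RefSeq, GRCm38.p6). The E-box CACGTG, which reads the same on both strands, was in 7 of 32 windows (21.9%), against 8.09% of 27025 genes and 11.5% of the 10609 tested genes with a window. Its longer form TCACGTGA, in which every match also counts as CACGTG, was in 4 of 32 (12.5%), against 1.12% and 2.16%. The 7 were *Lamp1*, *Mcoln1*, *Mcoln2*, *Cln3*, *Slc36a1*, *Slc38a7* and *Mfsd1*. Of the 7, *Lamp1* and *Mfsd1*, with 4 and 5 matches, and *Slc36a1* were high in K090, L080 and L078. Only *Mcoln1* was high in K089, L081 and L082, and *Mcoln2*, *Cln3* and *Slc38a7* were in neither trio. A link between the E-box and these levels was not tested. Sequences are given for matches of *Lamp1*, *Mfsd1*, *Mcoln1* and *Cln3*, picked with these trios known. The second stretch of *Mfsd1* also holds an E-box left in small letters, 26 bases before the start. Each match is read along the strand of its gene, with its own E-box in capitals, and each E-box lies before the RefSeq start of the gene:
Lamp1, chr8:13159089-13159116, + strand: gggcaagatatCACGTGgtccagcgccc
Lamp1, chr8:13159105-13159132, + strand: ggtccagcgccCACGTGatgccgactgg
Lamp1, chr8:13159122-13159149, + strand: atgccgactggCACGTGaccacatcacg
Lamp1, chr8:13159135-13159162, + strand: cgtgaccacatCACGTGcggaacggagc
Mfsd1, chr3:67582687-67582714, + strand: gagcaaccgttCACGTGagcacggagag
Mfsd1, chr3:67582721-67582748, + strand: cccgagcaagtCACGTGaacacacgtga
Mcoln1, chr8:3500463-3500490, + strand: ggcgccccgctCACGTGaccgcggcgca
Cln3, chr7:126583341-126583368, − strand: acgggtactgtCACGTGacccccaacct
The matches of *Lamp1* lie 61, 45, 28 and 15 bases before its start. Those in capitals lie 70 and 36 bases before it for *Mfsd1*, 45 for *Mcoln1* and 121 for *Cln3*. The matches in capitals of *Mfsd1*, *Mcoln1* and *Cln3* hold the longer form. A match is a stretch of letters, and no binding was measured here.

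Other genes of the lysosomal membrane formed a list of their own. Of 29 listed, 28 were tested, 17 had positive and 11 negative fold changes, 0 were called, and the median was 0.05. *Tcirg1*, the osteoclast proton pump subunit, had a log2 fold change of 0.30 (95% interval −0.22 to 0.81), and *Slc2a6*, a lysosomal hexose carrier, −0.58 (95% interval −2.11 to 0.95). *Slc2a6* spanned 2.43 log2 units across the libraries and had the lowest log2 fold change of this list, and *Clcn7*, given above, the highest. *Slc2a8*, a relative of *Slc2a6* in the list, had 0.10 (95% interval −0.16 to 0.37). Of 15 partners of the members, 11 had positive and 4 negative fold changes, with a median of 0.03 and 0 called. *Npc2*, which hands cholesterol to *Npc1*, had a log2 fold change of 0.15, and *Tasl*, the adaptor of *Slc15a4*, −0.32 (95% interval −1.59 to 0.95).

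Some counts may hold reads of a neighbour, since exons of an opposite-strand gene overlap those of a member and no strand setting is given in the sources used here. In GENCODE M21 this overlap covered 35.3% of the exon bases of *Tmem175* (*Dgkq*), 29.7% of those of *Mfsd12* (*4930404N11Rik*), 28.1% of those of *Slc15a3* (*Tmem132a*), 10.4% of those of *Sidt2* (*A830035O19Rik*) and 9.31% of those of *Lamp1* (*Grtp1*). *Lamp1* lies at chr8:13159161-13175338 of GRCm38, *Slc15a3* at chr19:10839727-10859362, *Slc11a1* at chr1:74375195-74386062, *Abcd4* at chr12:84601464-84617413, and *Slc17a5* at chr9:78536488-78588041.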

How the data were processed

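RNA was sequenced from 3 WT and 3 Slc37a2KO libraries. The authors deposited whole-number counts per gene, not normalized, beside log2 fold changes, mean log2 CPM, a likelihood ratio score and p-values from edgeR 3.30.3; these columns of the deposited comparison were not used. A further list holds the first 1000 rows of the same table. The submitters' processing notes name bcl2fastq 2.20.0.422 and mm10. The aligner, counting tool and strand setting are not given in sources used here. Columns were assigned to a genotype by heading, and 0 columns belonged to other samples.

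From these counts, fits were made with edgeR 4.0.16 in R 4.3.3 (filterByExpr, TMM, quasi-likelihood test with genotype as the term, Benjamini-Hochberg adjustment over 13483 genes, limit 0.05). The prior degrees of freedom were 2.35 and the biological coefficient of variation 20.8%. Log2 CPM used a prior count of 2. Exon lengths came from GENCODE M21, with the exons of all transcripts of a gene merged, and covered 95.2% of tested genes. The closest libraries, K089 and L081, differed by a chi-square per degree of freedom of 7.03, so none was a duplicate. Totals ran from 27552183 to 42522292 counts, and the errors given come from the spread between libraries. Alternatives were DESeq2 1.42.0 (size factors, Wald test), upper quartile scaling, no filter, at least 1 CPM in 3 libraries, the likelihood ratio test, a block for the heading letter, L libraries alone and each library left out. On simulated data for Slc37a2KO against WT, with 200 of 13483 genes changed by 1 log2 unit, the quasi-likelihood test called 104 of them and 10 unchanged genes.

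The members and lists were chosen with earlier results of these data known. Values per library are given for *Lamp1*, *Lamp2*, *Cd63*, *Cd68* and *Slc17a5*, which the study names, for *Slc37a2*, and in each role group for the member with the highest level per kilobase, the smallest p and the largest fold change. *Scarb2* and *Slc11a1* were added after their values were seen. The other lists were planned as counts, sums or medians, and single genes of them are named beyond that plan. Figures were drawn with matplotlib 3.10.9.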

Additional observations from a re-analysis of the deposited data

How the results depend on the processing

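No paired analysis was possible because the column headings carry no replicate number. Under the 14 alternatives, 495 of 532 log2 fold changes of members had the sign given above, and 0 had an adjusted p below 0.05 in edgeR or DESeq2. The median over the members ran from 0.02 to 0.09, the count of called members stayed 0, and *Slc37a2* was called, under every alternative run. The count of members whose groups did not overlap ran from 0 to 23 with a library left out. The L libraries alone turned the most signs. With DESeq2's size factors, *Slc15a4* came to 0.0044 and *Abcb9* to 0.0088, and with DESeq2's Wald test to 0.0041 and 0.0035. With no filter *Mcoln2* came to −0.0067. A fit of the L libraries alone gave 0.069 for *Lamp1*, 0.034 for *Lamp2*, −0.031 for *Cd63*, 0.15 for *Scarb2*, −0.016 for *Gpnmb*, −0.054 for *Tmem192*, −0.017 for *Ctns*, −0.038 for *Cln3*, 0.11 for *Slc15a3*, 0.024 for *Slc15a4*, 0.035 for *Slc36a1*, −0.0054 for *Slc38a9*, −0.0098 for *Mfsd12*, 0.049 for *Slc29a3*, 0.025 for *Slc11a1* and −0.029 for *Abca2*; it has fewer libraries and is fitted to counts, so it differs from the differences of mean log2 CPM above. With single libraries left out, signs turned for *Slc15a4* (−0.093 to 0.057), *Abcb9* (−0.15 to 0.087), *Mcoln2* (−0.14 to 0.10), *Slc29a3* (−0.073 to 0.051), *Gpnmb* (−0.0060 to 0.21), *Slc17a5* (−0.033 to 0.015) and *Spns1* (−0.013 to 0.11). The cause of these turns was not tested. With 3 libraries per genotype, the 95% intervals of the 5 most variable members leave room for changes of more than 1 log2 unit.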
